A study of Homo sapiens with 8 samples.

Results

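AXIN2 and the beta-catenin destruction complex were followed as 10 genes, AXIN1, AXIN2, APC, CTNNB1, GSK3A, GSK3B, CSNK1A1, TNKS, TNKS2 and BTRC, matched by symbol among the 17056 genes of the expression table. All 10 had a mean of at least 1 FPKM (fragment counts scaled by transcript length and by library size) over the 8 libraries, which placed them among the 10648 genes tested. The libraries were RNA-seq of A549 cells, an established line from a human lung adenocarcinoma, 2 in each of 4 groups. The vector control is labelled only as vector, and the overexpression group (OE) overexpressed the long non-coding RNA AFAP1-AS1. In the knockdown group (ASO) AFAP1-AS1 was knocked down, and the knockdown control (ASONC) was its own control. ASO is a common short form of antisense oligonucleotide, but the labels do not spell it out. The labels do not say how long the cells were treated, by what means, or whether the 2 libraries of a group came from separate cultures. A p-value therefore reflects the spread between libraries, and that spread may be only technical. The title of the series names AXIN2 splicing, and a value per gene holds no splicing. The targeted RNA, AFAP1-AS1, is not analysed here, and the labels were not checked against it. Values after ± are standard errors (SE) for differences and standard deviations (SD, n = 2) for FPKM and ratios.

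The destruction complex keeps the level of beta-catenin, the transcriptional effector of canonical Wnt signalling, low in cells without a Wnt signal. AXIN1 and AXIN2 are interchangeable scaffolds that, with the tumour suppressor APC, hold beta-catenin (CTNNB1) beside casein kinase 1 alpha (CSNK1A1) and the glycogen synthase kinases GSK3A and GSK3B. The phosphorylated protein is recognised by beta-TrCP (BTRC), the substrate adaptor of an SCF ubiquitin ligase, and degraded, while the tankyrases TNKS and TNKS2 mark the axins themselves for degradation. AXIN2 is also a direct transcriptional target of beta-catenin and so forms a negative feedback loop. Much of this control acts on proteins, which the libraries do not measure.

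Positions are those of GENCODE release 29 on GRCh38. AXIN1 spans chromosome 16 from 287440 to 352673, AXIN2 chromosome 17 from 65528563 to 65561647, GSK3A chromosome 19 from 42230186 to 42242625, GSK3B chromosome 3 from 119821323 to 120094417 and CSNK1A1 chromosome 5 from 149492197 to 149551552, all on the minus strand. On the plus strand lie APC (chromosome 5, 112707498 to 112846239), CTNNB1 (chromosome 3, 41194741 to 41260096), TNKS2 (chromosome 10, 91798312 to 91865276) and BTRC (chromosome 10, 101354033 to 101557321). The table gives a value per gene, so the exons behind it are not known.

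The 4 promoter windows below belong to APC, CTNNB1 and TNKS2, which with AXIN2 were the members that rose in the knockdown against its control. Each holds the 250 bases upstream of a RefSeq transcript start (GRCh38.p14), on the plus strand, with capitals marking the GC box GGGCGG or its complement CCGCCC. RefSeq windows were matched for 7 of the 10 members, 9 windows in all, and none were matched for AXIN2, TNKS and BTRC. The letters CTTTGAT, a core recognised by the TCF/LEF partners of beta-catenin, were found, on either strand, in 0 of the 9 windows, against 2.26% of 35116 windows of the same length. At that share most sets of 9 windows hold 0, so this count cannot show a lack of such sites. The GC box was in 6 of 9, against 42.6% of all windows.
APC, chr5:112707248-112707497: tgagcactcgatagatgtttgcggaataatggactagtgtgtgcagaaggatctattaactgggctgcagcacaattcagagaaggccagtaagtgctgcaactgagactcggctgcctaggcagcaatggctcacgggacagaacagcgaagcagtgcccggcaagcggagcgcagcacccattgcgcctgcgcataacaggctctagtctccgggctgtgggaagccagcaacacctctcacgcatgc
APC, chr5:112737635-112737884: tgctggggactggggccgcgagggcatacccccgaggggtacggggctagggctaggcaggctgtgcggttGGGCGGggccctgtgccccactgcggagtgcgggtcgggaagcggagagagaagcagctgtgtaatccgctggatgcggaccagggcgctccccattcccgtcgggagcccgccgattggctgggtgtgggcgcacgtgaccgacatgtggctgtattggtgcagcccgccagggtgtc
CTNNB1, chr3:41199255-41199504: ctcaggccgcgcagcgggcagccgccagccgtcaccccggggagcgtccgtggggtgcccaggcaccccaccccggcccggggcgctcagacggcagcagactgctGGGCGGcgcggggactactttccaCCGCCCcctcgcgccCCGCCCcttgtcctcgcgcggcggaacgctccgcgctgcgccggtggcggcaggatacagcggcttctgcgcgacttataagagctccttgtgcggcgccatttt
TNKS2, chr10:91798176-91798425: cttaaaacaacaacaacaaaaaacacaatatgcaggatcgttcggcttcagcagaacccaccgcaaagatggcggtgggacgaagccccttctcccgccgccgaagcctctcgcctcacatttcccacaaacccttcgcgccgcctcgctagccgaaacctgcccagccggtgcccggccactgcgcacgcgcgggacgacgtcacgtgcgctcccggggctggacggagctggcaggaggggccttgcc
These windows differ in composition as well as in motifs: the first APC window is 56.4% G and C without a GC box, the second is 70% with 1, the CTNNB1 window is 74.4% with 3, and the TNKS2 window is 64% with 0.

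Reads recovered from the FPKM steps and summed over the 17056 genes came to 33662221 to 37508996 a library. The knockdown control libraries stood apart, with 1435 and 1341 genes at 0 against 2205 to 2327 in the other 6. FPKM values summed to between 371927 and 379733 in the vector control and overexpression libraries and to between 421591 and 437924 in the knockdown control and knockdown libraries. Epithelial and A549 markers were read in every group. The keratin gene KRT18 had means of 983 to 1305 FPKM in the 4 groups, while EPCAM stayed between 0.39 and 0.86 FPKM, and SFTPC and SFTPB, surfactant genes of alveolar cells, were at 0 in 7 of 8. Of 9 markers of other cell types, 7 were under 1 FPKM on average. Their summed level ran from 3.48 to 3.69 FPKM in the vector control, 3.92 to 4.38 with overexpression, 4.75 to 4.79 in the knockdown control and 4.58 to 4.79 in the knockdown. The leukocyte marker PTPRC was at 0 in 7 of 8 libraries. CD14, also a leukocyte marker, was read in all 8, at 1.74 ± 0.23 FPKM in the vector control and 2.59 ± 0.15 with overexpression. It was at 1.88 ± 0.01 FPKM in the knockdown control and 2.45 ± 0.03 in the knockdown. The collagen gene COL1A1 had 0.55 ± 0.05 FPKM in the vector control and 2.45 ± 0.06 in the knockdown control (SD, n = 2). The endothelial markers VWF (0.81 ± 0.05 and 0.09 ± 0.06) and PECAM1 (0.43 ± 0.09 and 0.07 ± 0.04) went the other way in the same groups. The part of such RNA in the results below was not tested.

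Levels of the 10 genes spanned more than an order of magnitude in FPKM, which are scaled by length. The annotation behind that length is not given, and trends with length and GC content are described below. The order of the genes is therefore approximate. GSK3A (mean of 65.7 FPKM over the 8 libraries) and CTNNB1 (59.3) had the highest means, above those of 90.6% and 89.6% of the genes tested. CSNK1A1 followed at 34.2 FPKM. GSK3B (12.3), TNKS2 (10.9) and AXIN1 (9.84) lay near the middle of the tested genes. TNKS (4.90), BTRC (4.65) and APC (3.69) were lower, and AXIN2 was lowest at 2.57 FPKM, above 16.1% of the genes tested.

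**Figure D1:**
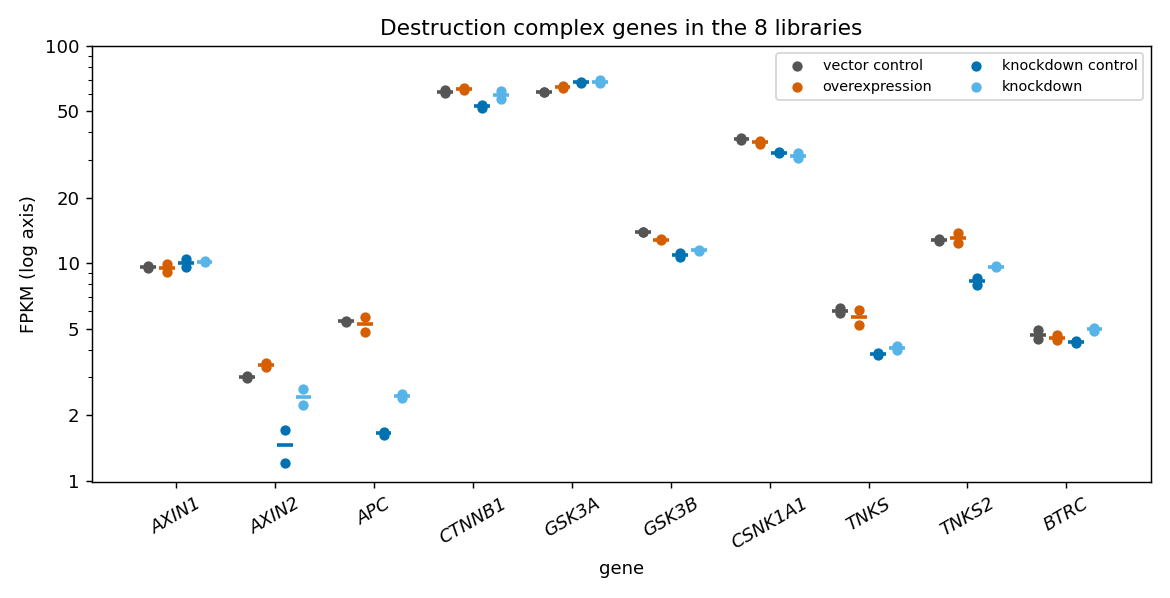
FPKM of the 10 genes (log axis) in the 8 libraries. Points are libraries, coloured by group, and short bars are the mean of 2. AXIN2 and APC show the widest spread between groups, with both knockdown control libraries (1.71 and 1.21 FPKM for AXIN2, 1.63 and 1.68 for APC) below all other libraries.

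Overexpression of AFAP1-AS1 left the messenger RNA of the complex without a detected change. Of the 10 members 0 passed the test against the vector control (limma on log2(FPKM + 1), Benjamini-Hochberg adjusted p below 0.05 over all genes), beside 0.0657% of all genes tested. No member had an unadjusted p below 0.05 in limma, against 738 of all 10648 genes tested, and voom on recovered reads also called 0 members. The values ran from -0.11 ± 0.05 (log2, SE) for GSK3B, whose 2 overexpression libraries (12.86 and 12.87 FPKM) were below both vector control libraries (13.99 and 13.91), to 0.14 ± 0.11 for AXIN2. AXIN2 was higher in both overexpression libraries than in both vector control libraries, and 18.2% of all genes tested had groups that did not overlap in that direction (16.9% in the direction of GSK3B). The 95% confidence interval of its difference, -0.09 to 0.37, includes no change as well as a moderate increase. The median of the 10 values was -0.03, and that of all genes tested 0.002. After the length and GC correction described below, 0 members passed as well, beside 0.0845% of all genes.

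Knockdown raised 4 members against the knockdown control: AXIN2, APC, CTNNB1 and TNKS2. The other 6 did not pass and 0 fell. Over all genes tested 22.2% were called, 11.3% higher and 10.9% lower. AXIN2 changed most, by 0.48 ± 0.11 (log2, SE; limma adjusted p = 0.00712), and 29 of the 10648 genes had a larger increase. APC followed with 0.38 ± 0.08 (limma adjusted p = 0.00837), then TNKS2 with 0.20 ± 0.07 (adjusted p = 0.0471) and CTNNB1 with 0.17 ± 0.05 (adjusted p = 0.0238). The median of the members was 0.11 and that of all genes 0.02. The count rests on single libraries: it was 1 without knockdown control replicate 2 and 0 without knockdown replicate 2, where the group left with 1 library is assumed to vary like the others. Calls over all genes fell in these fits too, to 12.4% and 11% of those tested. Removing the trend of each library with transcript length and GC content left 2 calls, AXIN2 higher and CSNK1A1 lower, beside 16.6% of all genes.

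The knockdown control itself lay far from the vector control in the same genes. There 7 members were lower and 1 higher, beside 68.6% of all genes called, 31.8% lower and 36.8% higher. APC fell by 1.27 on the log2 scale, AXIN2 by 0.71, TNKS2 by 0.58, TNKS by 0.55, GSK3B by 0.33, CTNNB1 by 0.22 and CSNK1A1 by 0.20, while GSK3A was higher by 0.15. AXIN1 (0.05) and BTRC (-0.09) did not pass. The median was -0.27 for the members and 0.04 for all genes. Scaling each library to a common sum put the median of the same 10648 genes at -0.16 here and at -0.13 in knockdown against vector control. With that scaling, where 11691 genes reached the minimum mean and were tested, 8 members were called lower and 0 higher, beside 66.9% of all genes, and GSK3A was at -0.07, above the median. After the length and GC correction 4 members were called, AXIN2, APC and TNKS2 lower and CSNK1A1 higher, beside 59% of all genes.

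Against the vector control, the knockdown libraries were lower in APC, TNKS, TNKS2, GSK3B and CSNK1A1 and higher in GSK3A, 6 members beside 62.9% of all genes (28.8% lower and 34.1% higher). AXIN2 (-0.23 ± 0.11, limma adjusted p = 0.0772) did not pass there, though voom on recovered reads called it lower (-0.32, adjusted p = 0.0381), as did scaling to a common sum (-0.43, adjusted p = 0.0154). These last 3 comparisons share libraries, so their values are given side by side and not as independent tests. The increase of AXIN2, APC, CTNNB1 and TNKS2 with knockdown was thus measured from a control in which each of the 4 was below the vector control, and their knockdown means were also below or close to the vector control. After the length and GC correction APC was lower and CTNNB1 and BTRC higher, beside 55.2% of all genes.

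**Figure D2:**
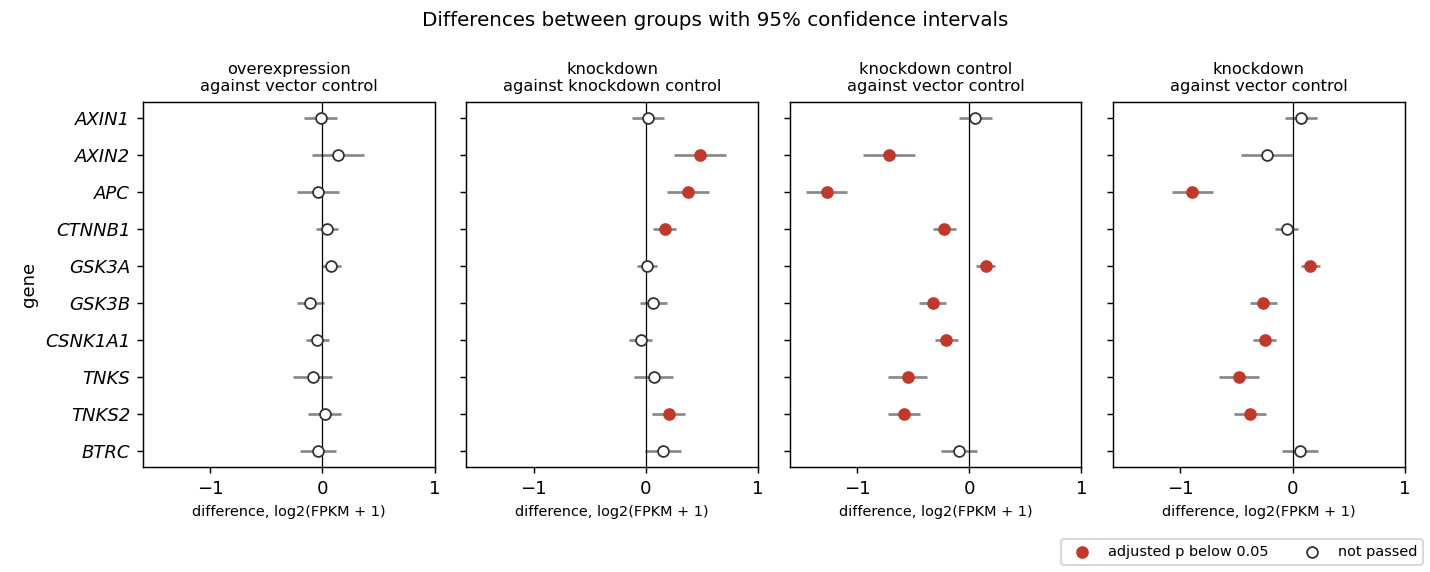
Differences between groups for the 10 genes on the log2(FPKM + 1) scale, with 95% confidence intervals from limma. Filled points passed at an adjusted p below 0.05: 0 with overexpression, 4 with knockdown, 8 between the controls and 6 for knockdown against vector control. GSK3A, filled on the right of 0 in the last 2 panels, was below 0 there when libraries were scaled to a common sum.

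The scaffold AXIN2 had 2.98 and 3.03 FPKM in the vector control, 3.35 and 3.48 with overexpression, 1.71 and 1.21 in the knockdown control, then 2.22 and 2.63 with knockdown. These values rest on 541 and 600, 650 and 703, 327 and 239, and 431 and 503 reads. All 4 groups were separate in the order overexpression, vector control, knockdown, knockdown control, and of the pairs tested only those that involve the knockdown control passed. The knockdown mean was 1.66 times that of the knockdown control and 0.807 times that of the vector control. Because a constant of 1 is added before the logarithm, the fold change of a gene this low is understated, and on recovered reads voom gave 0.75 for knockdown against its control and -1.07 between the controls. The call of knockdown against its control was lost without knockdown control replicate 2 (0.34, limma adjusted p = 0.0703), the library with the lowest AXIN2, and without knockdown replicate 2 (0.40, adjusted p = 0.0704). AXIN2 was the only member whose calls in both of these comparisons held with the same sign after the length and GC correction, at 0.52 (adjusted p = 0.00705) and -0.77 (adjusted p = 8.16e-05).

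Its paralogue AXIN1, the constitutively expressed scaffold, had 9.75 and 9.50 FPKM in the vector control, 9.95 and 9.08 with overexpression, 10.48 and 9.60 in the knockdown control, then 10.2 and 10.1 with knockdown. No comparison passed, and neighbouring groups overlapped throughout. The interval of its knockdown difference from the knockdown control was -0.12 to 0.17. Within a library the ratio of AXIN2 to AXIN1 was 0.306 and 0.319 in the vector control, 0.336 and 0.383 with overexpression, 0.163 and 0.126 in the knockdown control, then 0.217 and 0.259 with knockdown, so the 4 groups were separate in this ratio too. A ratio shows unequal levels of the 2 scaffolds and not which of them changed.

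APC, the large scaffold whose loss stabilises beta-catenin, had 5.39 and 5.41 FPKM in the vector control and 5.68 and 4.80 with overexpression. The knockdown control had 1.63 and 1.68, and the knockdown 2.40 and 2.50. Vector control and overexpression overlapped, and both stood clear of the knockdown, which stood clear of the knockdown control. The knockdown mean of 2.45 ± 0.07 FPKM was 1.48 times that of the knockdown control (1.65 ± 0.04) and 0.453 times that of the vector control (5.40 ± 0.01; SD, n = 2). Between the controls, 66 of the 10648 genes fell by more than APC. Its knockdown call against the knockdown control was lost without knockdown replicate 2 (0.36, limma adjusted p = 0.0579) and after the length and GC correction (0.25, adjusted p = 0.0526). That correction also reduced the fall between the controls from 1.27 to 0.71 on the log2 scale, which still passed (adjusted p = 1.71e-05). The ratio of APC to AXIN1 was 0.561 ± 0.012 in the vector control, 0.550 ± 0.030 with overexpression, 0.165 ± 0.014 in the knockdown control and 0.240 ± 0.008 with knockdown.

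APC was also the only member for which the overexpression effect and the knockdown effect differed (-0.42 ± 0.12, limma adjusted p = 0.0481), beside 10.2% of all genes (4.02% lower and 6.19% higher). This value was lost without any single library other than overexpression replicate 1: adjusted p was between 0.0895 and 0.174 without the other 7, and 0.182 after the length and GC correction, where 0 members and 6.86% of all genes were called. AXIN2 had a difference of -0.34 ± 0.15 that did not pass (adjusted p = 0.167), and voom on recovered reads called it as well as APC (-0.57, adjusted p = 0.0482).

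CTNNB1, which encodes beta-catenin, the substrate of the complex, had 60.6 and 62.7 FPKM in the vector control and 62.7 and 64.2 with overexpression. It had 53.6 and 51.9 in the knockdown control, then 57.1 and 61.8 with knockdown. Both knockdown control libraries were below all others, and the knockdown overlapped the vector control. The difference of knockdown from its control corresponds to a mean 12.7% higher. It was lost without knockdown control replicate 2 (0.15, limma adjusted p = 0.128), without knockdown replicate 2 (0.11, adjusted p = 0.199) and after the length and GC correction (0.09, adjusted p = 0.169). Between the controls the fall of 0.22 became 0.02 (adjusted p = 0.769) after that correction. In the knockdown against the vector control the value changed sign, from -0.05 (adjusted p = 0.341) to 0.11 (adjusted p = 0.0499). Over 17 alternative settings this comparison gave -0.23 to 0.11 and passed in 4. In 2 of these CTNNB1 was lower (smallest limma adjusted p = 0.00137), and in the rest it was higher, so its direction depended on the setting.

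Among the kinases, GSK3A was higher and GSK3B lower between the controls, with the vector control as the base, though GSK3A was at -0.07 when libraries were scaled to a common sum. GSK3A had 61.1 and 61.6 FPKM in the vector control, 65.4 and 64.3 with overexpression, 67.6 and 68.5 in the knockdown control, then 69.8 and 67.3 with knockdown. GSK3B had 13.99 and 13.91, 12.86 and 12.87, 10.7 and 11.1, and 11.4 and 11.6 FPKM in the same order. GSK3A was thus lowest and GSK3B highest in the vector control, with the overexpression libraries between the vector control and the knockdown control in both genes. The ratio of GSK3A to GSK3B was 4.36 and 4.43 in the vector control, 5.09 and 4.998 with overexpression, 6.30 and 6.15 in the knockdown control, then 6.11 and 5.82 with knockdown. Neither gene passed in knockdown against its control (0.01 ± 0.04 and 0.07 ± 0.05) or with overexpression (0.08 ± 0.04 and -0.11 ± 0.05). The calls between the controls (limma adjusted p = 0.00521 and 0.000203) were both lost after the length and GC correction, at 0.04 (adjusted p = 0.348) and 0.09 (adjusted p = 0.162), where GSK3B changed sign.

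CSNK1A1, the priming kinase that phosphorylates beta-catenin first, had 37.8 and 36.8 FPKM in the vector control, 35.4 and 36.7 with overexpression, 32.1 and 32.4 in the knockdown control, then 30.4 and 32.0 with knockdown. Its direction between the controls depended on the correction. It was -0.20 ± 0.05 (limma adjusted p = 0.00211) as deposited and 0.21 (adjusted p = 0.00202) with the length and GC trend removed, both past the threshold. In knockdown against its control, -0.05 ± 0.05 became -0.18 (adjusted p = 0.0217). CSNK1A1 has the lowest GC content of the 10 transcripts (39.4%), close to APC.

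The tankyrases, poly-ADP-ribosyltransferases that limit axin protein, were lower in both knockdown control and knockdown libraries than in the rest. TNKS had 5.88 and 6.23 FPKM in the vector control, 6.09 and 5.23 with overexpression, 3.85 and 3.80 in the knockdown control, then 3.99 and 4.15 with knockdown. TNKS2 had 13.0 and 12.7, 13.7 and 12.3, 8.59 and 7.91, and 9.64 and 9.67 FPKM in that order. Both genes fell by a similar amount between the controls (0.55 and 0.58 on the log2 scale; limma adjusted p = 6.92e-05 and 9.71e-06), and the ratio of TNKS to TNKS2 had means between 0.421 and 0.472 in the 4 groups. After the length and GC correction TNKS no longer passed (-0.11, adjusted p = 0.233) and TNKS2 did (-0.24, adjusted p = 0.00577). The increase of TNKS2 with knockdown was lost without any of the 4 libraries compared (adjusted p between 0.0529 and 0.242) and after the correction (0.11, adjusted p = 0.271).

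BTRC, the ubiquitin ligase adaptor, passed in none of the comparisons as deposited. It had 4.47 and 4.93 FPKM in the vector control, 4.67 and 4.44 with overexpression, 4.41 and 4.31 in the knockdown control, then 4.88 and 5.05 with knockdown. The knockdown libraries were above both control libraries of the knockdown (0.15 ± 0.07, limma adjusted p = 0.16), and overlapped the vector control. After the length and GC correction the knockdown was higher than the vector control (0.25, adjusted p = 0.0105). Between the controls, 1 of 16 alternative settings called BTRC, as lower (limma adjusted p = 0.00818), with values from -0.30 to 0.16 over the settings.

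Length and GC content ran along with these differences over all genes. Between the controls, Spearman's rho across 10629 genes was -0.51 with the length of the longest transcript and 0.52 with its GC content. It was 0.27 and -0.45 for knockdown against its control, and -0.07 and 0.13 with overexpression. Genes are not independent replicates, so these are descriptions. The members with low GC content, APC (39.6%, 10701 bases), CSNK1A1 (39.4%, 6067 bases), GSK3B (42.1%, 7711 bases), TNKS2 (42.5%, 6157 bases), TNKS (43.3%, 9620 bases) and CTNNB1 (43.5%, 4888 bases), all had lower values as deposited in the control of the knockdown than with the vector. AXIN1 (63.8%) and GSK3A (52.0%) were not lower. BTRC (45.3%, 6134 bases) was at -0.09, which did not pass, and at 0.16 when the trend was removed. AXIN2, at 53.1% and 4259 bases, was the member that went against the trend, and its difference grew slightly when the trend was removed. Whether the trend arose in the cells or in making the libraries was not tested. In RNA from bulk cultures, fewer cells of a kind and less RNA per cell cannot be told apart either.

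**Figure D3:**
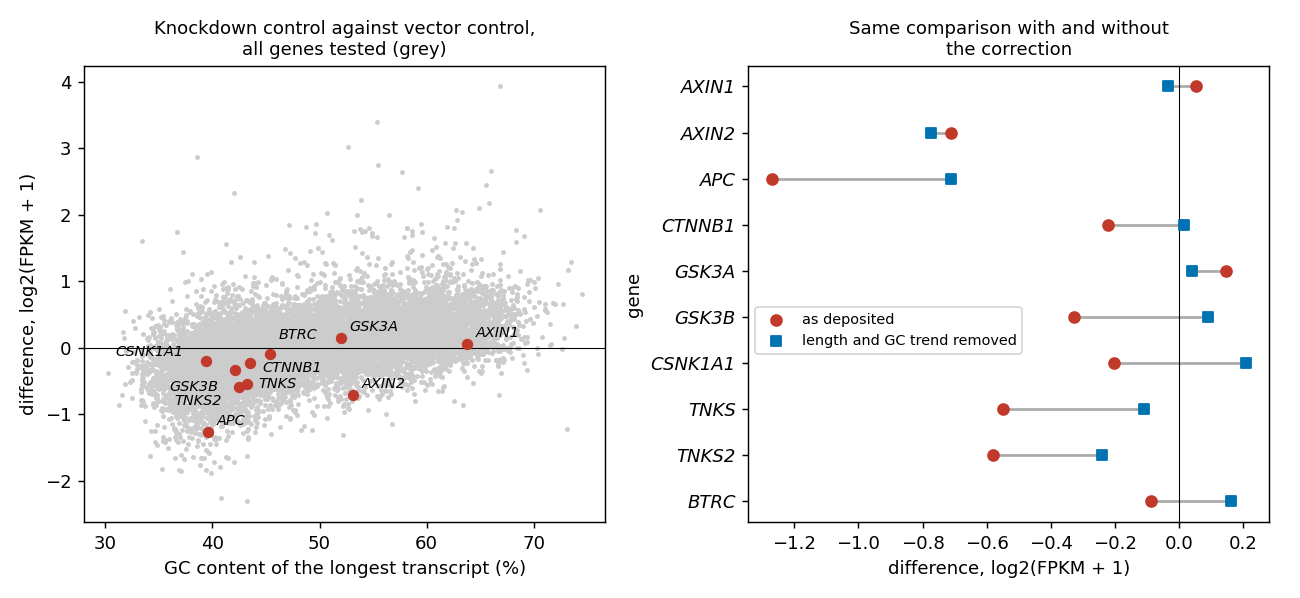
Left, difference of knockdown control from vector control on the log2(FPKM + 1) scale against the GC content of the longest transcript, for the tested genes with an annotation (grey) and the 10 members (red). Right, the same difference as deposited (circles) and with the length and GC trend removed (squares). AXIN2 went from -0.71 to -0.77 and APC from -1.27 to -0.71. CSNK1A1, AXIN1, BTRC, CTNNB1 and GSK3B changed sign.

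Among other genes that act on beta-catenin turnover, 25 of 30 listed were tested. With overexpression 0 passed, the smallest p-values belonging to GID8 (-0.12 ± 0.06), ZBED3 (-0.15 ± 0.08), PPP2CB (0.07 ± 0.04) and PPP2R1A (0.06 ± 0.04). With knockdown 6 rose and 1 fell against the knockdown control (median 0.06, all genes 0.02), 7 of 25 beside 22.2% of all genes. Among them the deubiquitinases USP34 (0.24 ± 0.06) and USP7 (0.18 ± 0.05) and the beta-TrCP paralogue FBXW11 (0.24 ± 0.06) rose, and FRAT2, a GSK3-binding protein gene, fell (-0.35 ± 0.11). Each of these 4 calls was lost without at least 2 of the single libraries compared, knockdown replicate 2 among them for all 4. After the length and GC correction 1 of the 25 passed, beside 16.6% of all genes. It was PPP2R5D, a subunit gene of protein phosphatase 2A that is named after its values were seen (0.26, limma adjusted p = 0.0126). As deposited its increase (0.20) was also called, and that call was lost without knockdown replicate 1 or either knockdown control library. Between the controls 7 were higher and 11 lower (median -0.11), beside 68.6% of all genes called. USP34, which stabilises axin, had 24.2 and 23.3 FPKM in the vector control, 23.7 and 22.1 with overexpression, 7.91 and 8.27 in the knockdown control, then 9.61 and 9.89 with knockdown, a fall of 1.44 between the controls that was larger than that of APC and remained at 0.89 after the correction. Its overexpression and knockdown effects differed (-0.29 ± 0.08, limma adjusted p = 0.0427), a call lost without any single library other than overexpression replicate 1 and after the correction (-0.15, adjusted p = 0.256). USP7 fell by 0.62 and CSNK1D, a casein kinase 1 gene, by 0.32 between the controls, and CSNK1G2 was higher by 0.43, which the correction reduced to 0.07 (adjusted p = 0.329). Knockdown against vector control called 8 higher and 11 lower, beside 62.9% of all genes, led by USP34 (-1.20), CSNK1D (-0.45), USP7 (-0.44) and CSNK1G2 (0.49).

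Nuclear partners of beta-catenin, the TCF/LEF factors with their co-activators and co-repressors, were mostly lower in the knockdown control. Of 24 listed 21 were tested, and 0 passed with overexpression, where TLE1 (-0.11 ± 0.05), PYGO1 (-0.13 ± 0.09), TCF7L2 (-0.08 ± 0.07) and CTNNBIP1 (0.11 ± 0.10) had the smallest p. With knockdown 0 rose and 2 fell, beside 22.2% of all genes called: BCL9L (-0.20 ± 0.06) and the co-repressor TLE4 (-0.22 ± 0.07), while HMGXB4 (0.18 ± 0.07) and TBL1XR1 (0.22 ± 0.08) did not pass. Both falls were lost without knockdown control replicate 2 or either knockdown library. Between the controls 14 were lower and 4 higher, beside 31.8% and 36.8% of all genes, with a median of -0.51 against 0.04 over all genes. With the length and GC trend removed the median was -0.15, with 11 lower and 4 higher, beside 59% of all genes called. The acetyltransferase gene EP300 fell by 0.76, the remodeller CHD8 by 0.56 and TLE1 by 0.43, and TLE5 was higher by 0.36. Knockdown against vector control called 4 higher and 13 lower, beside 34.1% and 28.8% of all genes, including TLE4 (-0.82), EP300 (-0.80), TLE1 (-0.50) and TLE5 (0.37). The TCF/LEF factor TCF7L2 had 8.81 and 8.01 FPKM in the vector control and 5.61 and 5.62 in the knockdown control, while LEF1 was at 0 in 7 of 8 libraries.

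Many known targets of beta-catenin had little RNA in these cells. Of 34 listed target genes 14 were under 1 FPKM on average, among them LGR5, LEF1 and WIF1 at 0 in 7 of 8 libraries, DKK4 at 0 in 6, NKD1 at 0.19 FPKM and NOTUM at 0.19 FPKM. None of the 20 tested passed with overexpression, where ID2 (-0.18 ± 0.04, limma adjusted p = 0.139), CD44 (-0.10 ± 0.04), CCND1 (-0.10 ± 0.04) and FOSL1 (-0.09 ± 0.04) had the smallest p. With knockdown 3 rose and 6 fell (median -0.04), beside 11.3% and 10.9% of all genes. AXIN2 was among those that rose, and the AP-1 genes JUN (-0.71 ± 0.04) and FOSL1 (-0.63 ± 0.04) and the receptor gene EPHB2 (-0.36 ± 0.07) fell. JUN and FOSL1 also differed between the overexpression and knockdown effects (0.67 ± 0.06 and 0.54 ± 0.05). Against the vector control, the knockdown was at 0.0006 for JUN (limma adjusted p = 0.991) and -0.11 for EPHB2 (adjusted p = 0.154), which did not pass. FOSL1 was lower there (-0.24, adjusted p = 0.000115). The falls of JUN, FOSL1 and EPHB2 with knockdown passed without any single library and after the length and GC correction, whereas 16 of the 19 called list genes other than the members lost their call without at least 1 library. These genes answer to many pathways besides Wnt.

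RNF43, a ubiquitin ligase gene of Wnt receptor turnover and a feedback target, was singled out after its values were seen. It had 3.87 and 3.48 FPKM in the vector control, 4.0 and 3.83 with overexpression, 1.601 and 1.98 in the knockdown control, then 2.25 and 2.64 with knockdown. Like AXIN2 it was lowest in the control of the knockdown (-0.75 ± 0.10 between the controls) and rose with knockdown (0.30 ± 0.10, limma adjusted p = 0.0424), a call lost without knockdown control replicate 1 or knockdown replicate 2 (adjusted p up to 0.253). Its paralogue ZNRF3 had 4.09 and 3.74, 3.97 and 3.88, 2.95 and 3.18, and 3.41 and 4.003 FPKM in the same order and did not pass with knockdown (0.21 ± 0.09, adjusted p = 0.103). Between the controls, 10 of the 20 target genes were higher and 5 lower, beside 36.8% and 31.8% of all genes, with a median of 0.16. VEGFA (0.86), JUN (0.71), ID2 (0.44) and FOSL1 (0.39) were higher there, opposite to AXIN2, but FOSL1 was at -0.06 (adjusted p = 0.148) after the length and GC correction. That correction left 7 of the 20 higher and 6 lower, beside 59% of all genes called. The median was then 0.04, against 0.02 over all genes. Knockdown against vector control called 7 higher and 4 lower, beside 62.9% of all genes, led by BIRC5 (0.37), ID2 (0.33), VEGFA (0.61) and TCF7L2 (-0.53). With the correction 5 were higher and 7 lower in that comparison, beside 55.2% of all genes. In these 3 comparisons the called target genes lay in both directions.

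Cadherins bind beta-catenin at the membrane, and 5 of 6 listed genes of cadherins and junction catenins were tested. E-cadherin (CDH1) had 4.08 and 3.55 FPKM in the vector control, 4.42 and 3.62 with overexpression, 1.44 and 0.84 in the knockdown control, then 1.41 and 1.78 with knockdown. It fell by 1.18 between the controls and by 0.89 in the knockdown against the vector control, and was at 0.29 ± 0.14 in knockdown against its control, which did not pass (limma adjusted p = 0.154). The catenins CTNND1 (0.24 ± 0.05) and JUP (0.19 ± 0.05) rose with knockdown, 2 of the 5 beside 22.2% of all genes called, after being lower in the knockdown control (-0.29 and -0.13). The increase of CTNND1 was lost without knockdown replicate 2, and that of JUP without knockdown control replicate 2 or either knockdown library. The fall of JUP between the controls was lost without knockdown control replicate 2 or vector control replicate 1. After the length and GC correction both genes still rose with knockdown (0.19 and 0.28), beside 16.6% of all genes called. Between the controls CTNND1 was then at -0.06 (limma adjusted p = 0.284) and JUP at -0.37 (adjusted p = 4.96e-05). Knockdown against vector control called CDH1 alone, beside 62.9% of all genes, and CDH2 (-0.16), CTNNA1 (-0.06) and JUP (0.06) did not pass. With the correction CTNND1 was also called there, as higher (0.13, limma adjusted p = 0.0343), beside 55.2% of all genes. With overexpression 0 passed, with CDH2 at -0.18 ± 0.08 and CTNND1 at 0.08 ± 0.05.

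**Figure D4:**
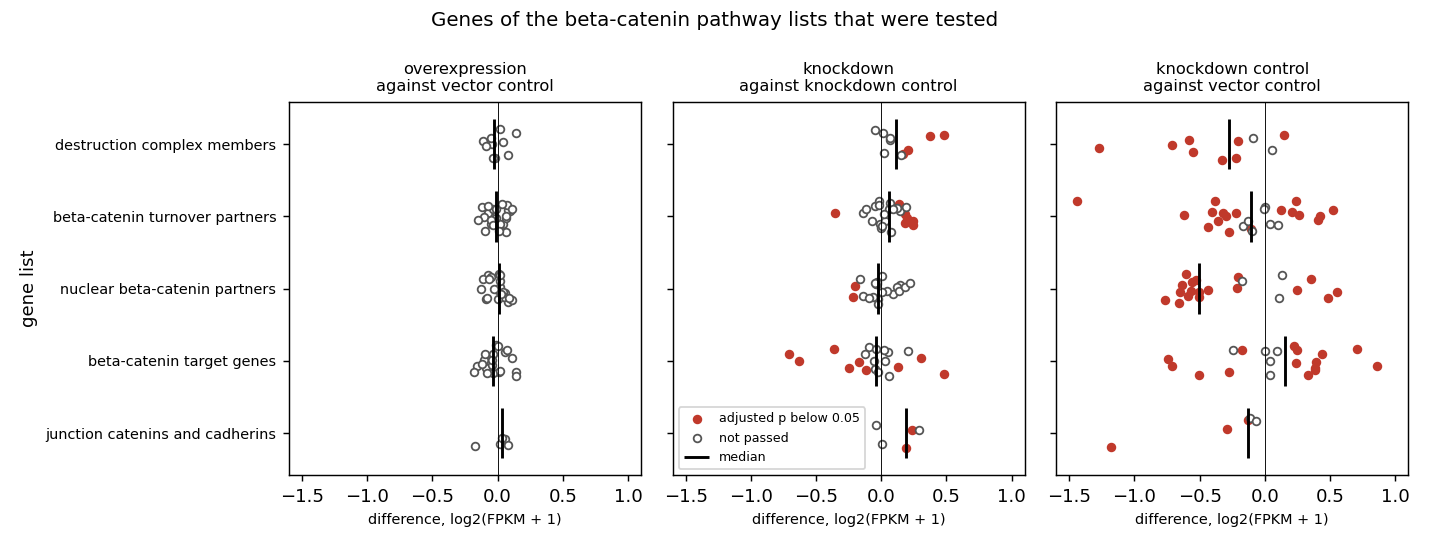
Difference on the log2(FPKM + 1) scale of each tested gene of the 5 pathway lists in 3 comparisons. Filled points passed at an adjusted p below 0.05 and vertical bars are list medians. The overexpression panel has 0 filled points, and the nuclear partners have a median of -0.51 between the controls.

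Of all genes tested, the 5 whose levels followed AXIN2 most closely over the 8 libraries were IARS2 (mitochondrial isoleucyl-tRNA synthetase; Pearson's r = 0.9953 on the log2 scale), DUSP3 (a dual-specificity phosphatase; 0.9936), KIF18B (a mitotic kinesin; 0.9904), EXOC6B (an exocyst subunit; 0.9875) and NCAPG2 (a condensin II subunit; 0.9855). IARS2 had 64.6 ± 1.38 FPKM in the vector control, 66.5 ± 1.51 with overexpression, 50.7 ± 3.25 in the knockdown control and 59.6 ± 2.90 with knockdown (SD, n = 2). Among the members CTNNB1 came closest at 0.9751, with 22 genes above it, then TNKS2 (0.926, 447 genes above) and APC (0.896, 937 genes above). GSK3A (-0.65) and AXIN1 (-0.38) ran the other way. All of these values share the same 8 libraries in 4 groups and are descriptions without a test.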

How the data were processed

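RNA-seq was made from total RNA of A549 cells, 2 libraries in each of 4 groups, grouped by the sample titles. The authors deposited a table of FPKM values for 17056 genes, 1 column a library, per the file headers. Tools named in the submitters' processing notes are HTSeq, featureCounts, HISAT2 and R 3.2.0, without their roles, and the build is hg38 (GRCh38). Annotation, filters and strand use are not given in the sources, so reads of genes that overlap on opposite strands cannot be told apart.

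Whole reads were recovered from the FPKM steps, whole within 0.02 reads in 17056 genes (100.0%). Summed over these genes they came to 33662221 to 37508996 reads a library, without any reads outside them.

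Differences were tested two-sided with limma (version 3.58.1, R 4.3.3; lmFit, then contrasts.fit and eBayes with trend) on log2(FPKM + 1), for 10648 genes averaging at least 1 FPKM, with all 4 groups in the same fit (4 residual degrees of freedom) and Benjamini-Hochberg adjustment over all genes tested. The constant of 1 understates changes of low genes. With 2 against 2 libraries an exact permutation test cannot go below p = 0.333, so none was used. Replicates differed beyond counting noise (chi-square per degree of freedom 5.11 to 5.88) and were kept as separate samples.

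The 10 members, the 4 pathway lists, the marker lists and the comparisons were chosen with earlier results of these data known. Named beside the members were up to 4 genes of each pathway list with the smallest p in a comparison, and the 5 genes with the highest Pearson correlation with AXIN2. Transcript length and GC content came from GENCODE release 29 and covered 99.82% of the genes tested. The correction removed, in each library, a natural-spline trend (4 degrees of freedom for each) of the deviation from the gene mean. Alternatives were pseudocounts of 0.1 and 0.5, other filters and scalings, eBayes without trend, a fit to the compared libraries, a replicate block, voom on recovered reads, and leaving out each library.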

Additional observations from a re-analysis of the deposited data

Results flagged for a closer look

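Values are singled out here where the effect of overexpression against the vector control differed from the effect of knockdown against the knockdown control, by limma's test of that difference. For APC the difference was -0.42 ± 0.12 (SE, log2; adjusted p = 0.0481): overexpression gave -0.04 and knockdown 0.38. For USP34, a deubiquitinase gene of axin turnover, it was -0.29 ± 0.08 (limma adjusted p = 0.0427). Both calls were lost without any single library other than overexpression replicate 1. The AP-1 genes JUN (0.67 ± 0.06, limma adjusted p = 3.35e-05) and FOSL1 (0.54 ± 0.05, limma adjusted p = 4.65e-05) differed in the other direction. Both were lower in the knockdown libraries than in the knockdown control. In the knockdown against the vector control JUN was at 0.0006 (limma adjusted p = 0.991), or -0.11 after the length and GC correction (adjusted p = 0.043). FOSL1 was at -0.24 there as deposited (adjusted p = 0.000115).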

How the results depend on the processing

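Over 21 alternative settings, 860 values of single members were recomputed: 758 kept their direction and their side of the threshold, 45 lost a call, 10 gained a call and 47 changed sign. The length and GC correction changed the sign of 11 of the values, to the same values with and without the replicate block. In knockdown control against vector control it gave AXIN1 -0.033, BTRC 0.16, CSNK1A1 0.21, CTNNB1 0.016 and GSK3B 0.091. In knockdown against vector control it gave CSNK1A1 0.033, CTNNB1 0.11 and GSK3B 0.051, in knockdown against its control GSK3B -0.040 and TNKS -0.023, and CSNK1A1 0.14 for overexpression minus knockdown effect. Scaling to a common sum gave AXIN1 -0.15 and GSK3A -0.070 between the controls, and AXIN1 -0.091, BTRC -0.089 and GSK3A -0.016 for knockdown against vector control. Median-of-ratios scaling gave AXIN1 -0.0024 between the controls. CSNK1A1 had an overexpression minus knockdown effect of 0.00011 with a pseudocount of 0.1, 2.93e-05 with 0.5 and 0.00085 with voom.

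Leaving out each library in turn, values that crossed 0 ranged with overexpression from -0.14 to 0.063 for APC, -0.076 to 0.043 for AXIN1, -0.096 to 0.022 for BTRC, -0.18 to 0.0081 for TNKS and -0.052 to 0.091 for TNKS2. With knockdown against its control they ranged from -0.037 to 0.078 for AXIN1 and -0.015 to 0.037 for GSK3A, between the controls from -0.0035 to 0.11 for AXIN1, in knockdown against vector control from -0.11 to 0.0030 for CTNNB1, and for overexpression minus knockdown effect from -0.096 to 0.023 for AXIN1 and -0.038 to 0.038 for CSNK1A1.

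The count of members called with knockdown was 4, beside 2369 of 10648 genes. It was 2 under eBayes without trend (1937 of 10648 genes called) and with no filter (2274 of 17056). Under the length and GC correction it was also 2, without the replicate block (1769 of 10648) and with it (1694). A minimum mean of 5 FPKM gave 2 of 6 members tested, AXIN2 and APC not among them, beside 2054 of 7296 genes. Leaving out 1 library changed the count as well. Knockdown against vector control gave 3 under the length and GC correction, without the block (5877 of 10648 genes called) or with it (5849). The controls gave 4 under that correction, again without the block (6286 of 10648 genes called) or with it (6276). At a minimum mean of 5 FPKM they gave 5 of 6 members tested, beside 5467 of 7296 genes. For overexpression minus knockdown effect the count was 1, beside 1087 of 10648 genes. It was 0 under the correction without the block (730 genes called) and with it (667), with no filter (795 of 17056) and with the replicate block alone (1080). With voom it was 2 (1701 genes called). A minimum mean of 5 FPKM also gave 0, but APC, at 3.69 FPKM, was not tested there. The count also depended on which library was left out. Replicate numbers did not pair the samples (correlation of deviations -0.06 to 0.06), and the block otherwise left the counts of members called at 0, 4, 8 and 6. The causes were not tested. AXIN2 rests on 239 to 703 reads a library, and 2 libraries a group limit all differences.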
